A study of Mus musculus with 10 samples.

Results

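The genes of the transforming growth factor β (TGF-β), myostatin and activin system were examined in muscle stem cells (MuSCs) with and without Trpm7, the gene of a channel that conducts magnesium and other divalent cations. A list of 10 genes was taken by symbol: the ligands Tgfb1, Tgfb2 and Tgfb3, the receptors and coreceptor Tgfbr1, Tgfbr2 and Tgfbr3, the activin type II receptors Acvr2a and Acvr2b, myostatin (Mstn), and the antagonist follistatin (Fst). Of these, 9 genes were analysed out of 24608 gene symbols counted. Mstn was not analysed here. The 5 control libraries came from Trpm7+/+; Pax7CreERT2/+; Rosa26YFP mice and the 5 Trpm7 cKO libraries from Trpm7flox/flox; Pax7CreERT2/+; Rosa26YFP mice. Both groups were adult C57BL6 mice of 7 to 20 weeks of age, and both carried the Pax7-driven, tamoxifen-inducible Cre and the YFP reporter. Tamoxifen was given daily for 5 days, muscle was injured with cardiotoxin (CTX), and YFP-positive cells were sorted 3 days after the injury. The Cre acts in Pax7-expressing cells, so cells of other lineages in the injured muscle kept an intact Trpm7. Each library was made from 3000 sorted cells by CEL-Seq2, which reads the 3′ end of each mRNA and counts molecules by unique molecular identifiers. Neither the labels nor the methods used here say whether each library came from a separate mouse, so the p-values measure the spread between these libraries.

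TGF-β ligands are secreted in a latent form, held in the matrix by latent TGF-β binding proteins, and become active when proteases, integrins or thrombospondin free them. The active ligand binds the type II receptor TGFBR2, which phosphorylates the type I receptor TGFBR1, and SMAD2 and SMAD3 then carry the signal to the nucleus with SMAD4. Betaglycan, the product of Tgfbr3, is a coreceptor that presents TGF-β2 in particular to the signalling receptors. Activins and myostatin signal through ACVR2A and ACVR2B into the same SMADs, and follistatin binds and neutralises them. In skeletal muscle, myostatin limits muscle mass, and TGF-β restrains the differentiation of myoblasts and promotes matrix deposition by fibroblasts.

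The RefSeq promoter table (build GRCm38.p6) matched 6 of the 9 genes with 7 promoters, and the 250 bases before the start of transcription were read for 6 motifs on both strands. The promoters of Tgfb2 and Tgfb1 are shown because these ligands of one family had different base composition there and different levels in the libraries. Capitals mark the motif letters found. The TATA box was searched as TATAAA and the E-box as CACGTG. The GC box was searched as GGGCGG, on either strand like the rest. The Tgfb2 stretch lies at chr1:186705990-186706239 on the minus strand and the Tgfb1 stretch at chr7:25686752-25687001 on the plus strand, each printed 5′ to 3′ along the gene.
Tgfb2: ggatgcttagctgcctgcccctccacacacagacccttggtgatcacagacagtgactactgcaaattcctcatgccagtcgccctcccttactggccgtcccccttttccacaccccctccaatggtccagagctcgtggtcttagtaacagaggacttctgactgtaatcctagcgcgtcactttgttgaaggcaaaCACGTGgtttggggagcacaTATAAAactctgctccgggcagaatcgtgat
Tgfb1: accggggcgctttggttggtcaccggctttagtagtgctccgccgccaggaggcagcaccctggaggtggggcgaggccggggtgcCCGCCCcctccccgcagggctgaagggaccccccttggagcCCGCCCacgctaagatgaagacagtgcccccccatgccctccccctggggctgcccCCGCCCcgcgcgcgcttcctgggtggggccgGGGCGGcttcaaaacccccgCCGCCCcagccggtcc
The Tgfb2 promoter was 53.6% GC, with TATAAA beginning at position -31 and CACGTG at position -51, counted back from the start. The Tgfb1 promoter was 75.2% GC, with 5 GC boxes and neither of the other marked motifs. Among 32851 mouse promoters of the same length, 12.4% held TATAAA, 6.02% held CACGTG and 32.7% held GGGCGG on either strand. The cAMP response element TGACGTCA, the AP-1 element TGACTCA and the palindromic SMAD element GTCTAGAC were in none of the 7 promoters, and 1.55%, 4.46% and 0.167% of all promoters held them. No motif marked in capitals overlapped another.

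Depth ranged from 914361 to 1097709 counts in the control libraries and from 205986 to 581121 in the Trpm7 cKO libraries, so the groups did not overlap in depth. A single count stood for 0.994 CPM, the normalised counts scaled to a library size of 1e+06, in the largest library and 5.52 in the smallest. Trpm7 itself gave 66 to 84 counts in control and 10 to 55 in Trpm7 cKO libraries, with a log2 fold change of -0.09 ± 0.20 (SE, edgeR adjusted p = 0.723). The deleted exons are not given in the sources used here and a 3′-end library may not cover them, so this level was not taken as a check of the deletion. The summed MuSC markers ranged from 4341 to 5050 CPM in control and from 3463 to 5656 CPM in Trpm7 cKO, and 10 of 17 tested MuSC markers were higher and 3 lower. Markers of other cells were higher in the Trpm7 cKO libraries. All 20 tested leukocyte markers, all 3 endothelial, 4 of 5 fibroadipogenic, both mural and all 3 erythroid markers passed in that direction. Over all genes tested, 24.6% did. Not tested were 9 leukocyte, 8 endothelial, 8 fibroadipogenic, 5 mural and 1 erythroid markers. A marker sparse in control, such as Ccr2 at 1 to 5 counts, could pass the low-count filter only where Trpm7 cKO was higher. For such markers the direction was fixed in advance. A number of unstated meaning is common to the labels of 2 Trpm7 cKO libraries, replicates 4 and 5. In a bulk library, fewer cells of a type and less RNA per cell cannot be told apart.

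Of the 9 genes, 6 passed the filter on low counts. At an adjusted p below 0.05, 3 of these 6 (Tgfb2, Tgfbr3 and Fst) were higher in the Trpm7 cKO libraries and 0 were lower. The counts of 3 higher and 0 lower were the same with DESeq2 and with limma-voom, and at an unadjusted p below 0.05 in edgeR. Across all 7753 genes tested by edgeR's quasi-likelihood test, 24.6% were higher and 24.1% were lower at that threshold. The log2 fold change exceeded 1.5 for 2 genes, Tgfb2 and Tgfbr3, against 8.49% of all genes tested, and no gene of the list fell past it, against 3.53%. The median log2 fold change was 0.91 over the 6 tested genes and -0.01 over all genes. Tgfb1, Tgfb3 and Acvr2b were too sparse for the test and are given by their counts.

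**Figure D1:**
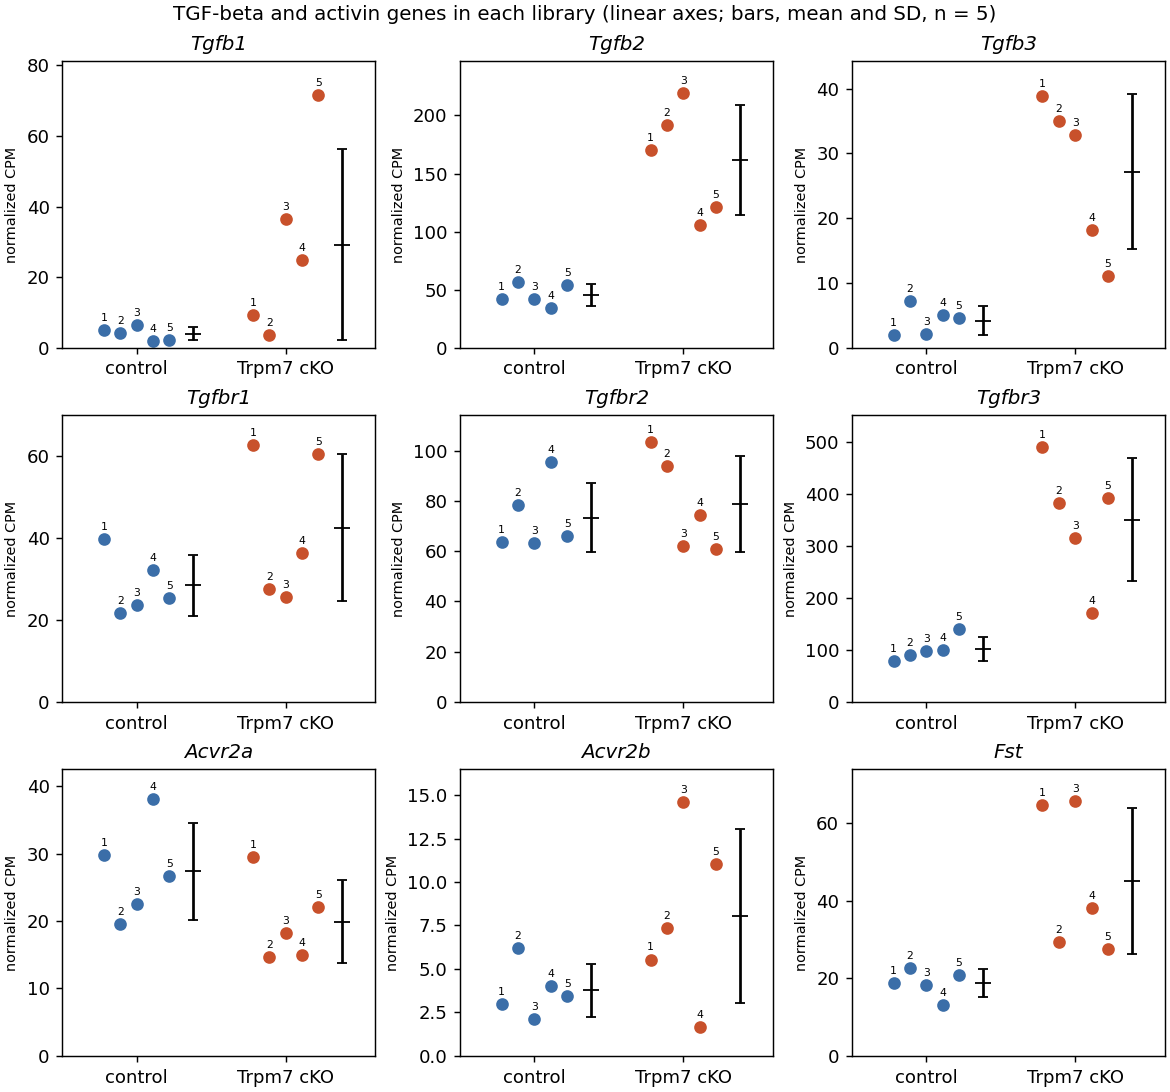
Normalised CPM (linear y axes) of 9 TGF-β and activin genes in the 5 control (blue) and 5 Trpm7 cKO (red) libraries, each point 1 library with its replicate number and each bar the mean and SD. Tgfb2, Tgfb3, Tgfbr3 and Fst have all 5 Trpm7 cKO points above all 5 control points, and the other 5 genes overlap.

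Tgfb2 (chr1:186622792-186705989, minus strand), which encodes the ligand TGF-β2, was the most abundant ligand in both groups and was higher in the Trpm7 cKO libraries. The control libraries held 42, 55, 39, 34 and 47 counts, or 41.8, 56.8, 41.8, 34.1 and 54.4 normalised CPM. The Trpm7 cKO libraries held 92, 104, 60, 64 and 22 counts, or 170, 191, 219, 106 and 121 normalised CPM. Every Trpm7 cKO library lay above every control library on the CPM scale, and 34.5% of all genes tested had groups that did not overlap. The mean rose from 45.8 ± 9.53 to 162 ± 47.4 CPM (SD, n = 5 each), a 3.53-fold difference and a log2 fold change of 1.82 ± 0.20 (SE, 95% interval 1.39 to 2.25; edgeR adjusted p = 7.41e-07). Per 1000 sorted cells the same libraries held 14.5 ± 2.67 and 22.8 ± 10.6 counts (SD, n = 5 each), and on this unscaled measure the difference did not pass the test (log2 fold change 0.65, edgeR adjusted p = 0.107). Trpm7 cKO replicate 5, the shallowest library, held fewer Tgfb2 molecules than any control library, although its CPM was above all of them.

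Tgfb3 (chr12:86056745-86079041, minus strand), the gene of TGF-β3, was scarce in control and had higher CPM in every Trpm7 cKO library. Control libraries held 2, 7, 2, 5 and 4 counts, and Trpm7 cKO libraries held 21, 19, 9, 11 and 2. As CPM these were 1.99 to 7.23 in control and 38.8, 35.0, 32.9, 18.2 and 11.04 in Trpm7 cKO replicates 1 to 5, so the groups did not overlap. The value of Trpm7 cKO replicate 5 rested on 2 molecules. The mean was 4.20 ± 2.19 CPM in control and 27.2 ± 11.9 CPM in Trpm7 cKO (SD, n = 5 each). When the filter was removed, the log2 fold change was 2.52 ± 0.41 (SE, edgeR adjusted p = 6.53e-09). Ttll5 lies over the 3′ end of Tgfb3 on the opposite strand, and the strand setting of the counting is not given in the sources used here, so reads of the pair could not be told apart.

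Tgfb1 (chr7:25687002-25705077, plus strand), which encodes the TGF-β isoform most abundant in immune cells and platelets, differed more among the Trpm7 cKO libraries than between the groups. The counts were 5, 4, 6, 2 and 2 in control and 5, 2, 10, 15 and 13 in Trpm7 cKO. Normalised CPM ranged from 2.01 to 6.43 in control, and was 9.24, 3.68, 36.5, 24.9 and 71.7 in Trpm7 cKO replicates 1 to 5. Replicate 2 lay within the control range and replicate 1 just above it, while replicates 3, 4 and 5 stood apart. The mean was 3.97 ± 1.85 CPM in control and 29.2 ± 27.1 CPM in Trpm7 cKO (SD, n = 5 each). Tgfb1 did not pass the filter, and without the filter its log2 fold change was 2.28 ± 0.45 (SE, edgeR adjusted p = 3.23e-06).

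The summed level of 29 leukocyte markers also differed among the Trpm7 cKO libraries, and was lowest in the library with the lowest Tgfb1. That sum was 403 to 684 CPM in control, and 3842, 1551, 3931, 6644 and 6313 CPM in Trpm7 cKO replicates 1 to 5. The endothelial sum was 161, 134, 256, 421 and 762 CPM in Trpm7 cKO replicates 1 to 5. It was likewise lowest in replicate 2, and highest in replicate 5 as Tgfb1 was. The fibroadipogenic and mural sums were lowest in replicate 3 and the erythroid sum in replicate 1. Cd3e, Cd79a and Nkg7, which mark lymphocytes, were at 0 in all control libraries. They gave at most 1, 1 and 2 counts in any Trpm7 cKO library. Replicate 2, with the lowest leukocyte sum of its group, had Tgfb1 at the control level but Tgfb2 at 191, Tgfb3 at 35.0 and Tgfbr3 at 383 CPM. Replicates 4 and 5, with the highest leukocyte sums, had the lowest Tgfb2 and Tgfb3 levels of the Trpm7 cKO group. The part of the leukocyte or endothelial level in the difference of Tgfb1 between the groups was not tested.

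**Figure D2:**
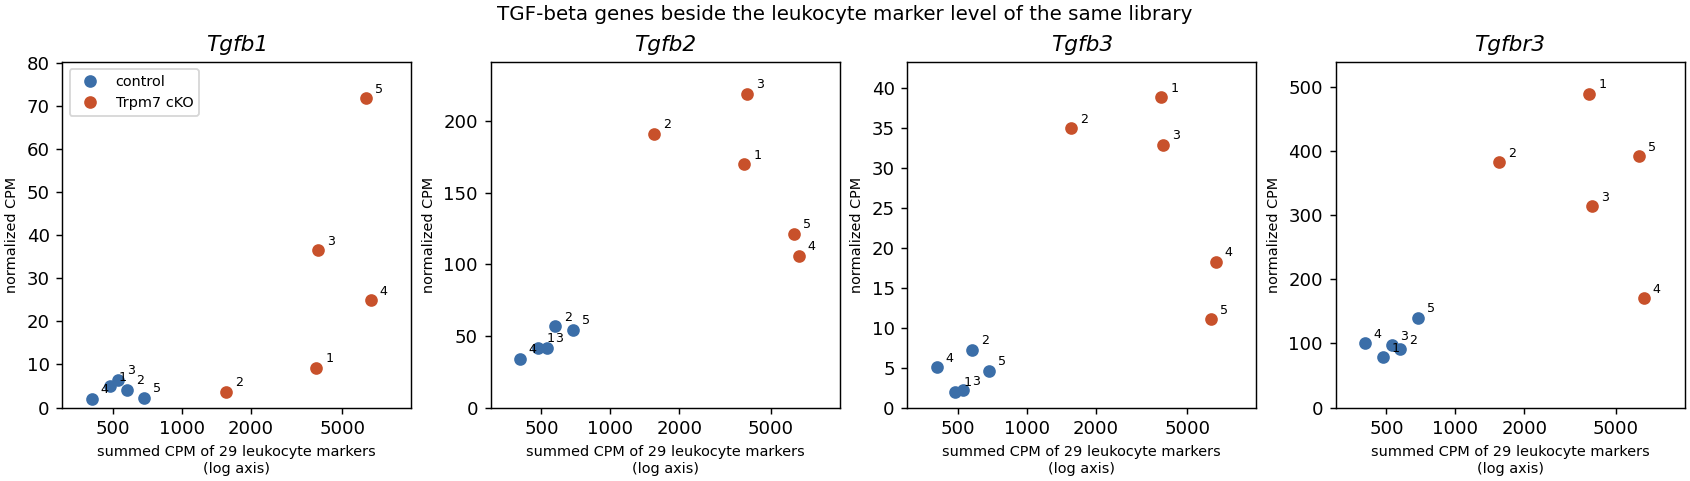
Normalised CPM of Tgfb1, Tgfb2, Tgfb3 and Tgfbr3 (linear y axes) against the summed normalised CPM of 29 leukocyte markers in the same library (log x axis), with control in blue, Trpm7 cKO in red and replicate numbers beside the points. Trpm7 cKO replicate 2, at 1551 CPM of leukocyte markers, lies with the control libraries for Tgfb1 and above them for the other 3 genes.

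When the mean leukocyte marker level was added to the model as a covariate, Tgfb2 stayed higher in Trpm7 cKO (log2 fold change 2.39, edgeR adjusted p = 0.00572), as did Tgfbr3 (2.39, adjusted p = 0.0277). Fst was no longer past the threshold (log2 fold change 0.62, adjusted p = 0.7103). The leukocyte sums of the groups did not overlap, so the covariate separates the libraries as the genotype does.

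Tgfbr3 (chr5:107106570-107289629, minus strand), the gene of the coreceptor betaglycan, was higher in the Trpm7 cKO libraries. The signalling receptors Tgfbr1 and Tgfbr2 did not pass the test. The control libraries held 79, 88, 91, 100 and 121 counts of Tgfbr3, and the Trpm7 cKO libraries held 265, 208, 86, 103 and 71. As normalised CPM the control libraries were at 78.6, 90.9, 97.6, 100.4 and 140, and the Trpm7 cKO libraries at 490, 383, 314, 171 and 392. Trpm7 cKO replicate 4 was the lowest of its group and still lay above the highest control library. The mean rose from 101 ± 23.2 to 350 ± 118 CPM (SD, n = 5 each), a 3.44-fold difference and a log2 fold change of 1.78 ± 0.23 (SE, 95% interval 1.30 to 2.27; edgeR adjusted p = 6.35e-06). Per 1000 sorted cells, Tgfbr3 gave 31.9 ± 5.32 counts in control and 48.9 ± 28.4 in Trpm7 cKO (SD, n = 5 each). This unscaled difference did not pass the test (log2 fold change 0.61, edgeR adjusted p = 0.131).

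Tgfbr1 (chr4:47353222-47414931, plus strand), the type I receptor kinase, had overlapping groups. Control libraries held 40, 21, 22, 32 and 22 counts and Trpm7 cKO libraries 34, 15, 7, 22 and 11. The level was 28.5 ± 7.42 CPM in control and 42.6 ± 18.0 CPM in Trpm7 cKO (SD, n = 5 each). Trpm7 cKO replicates 1 and 5 were at 62.8 and 60.7 CPM, above all control libraries, and the other 3 lay within the control range. The log2 fold change was 0.54 ± 0.27 (SE, 95% interval -0.03 to 1.11; edgeR adjusted p = 0.107), and with scaling on total counts alone it was 0.65 with an adjusted p of 0.0497.

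Tgfbr2 (chr9:116084293-116175360, minus strand), the ligand-binding type II receptor, had overlapping levels in the groups. Its counts were 64, 76, 59, 95 and 57 in control and 56, 51, 17, 45 and 11 in Trpm7 cKO. The mean was 73.3 ± 13.8 CPM in control and 78.9 ± 19.1 CPM in Trpm7 cKO (SD, n = 5 each), and the ranges overlapped widely. The log2 fold change was 0.16 ± 0.19 (SE, edgeR adjusted p = 0.507), and its 95% interval of -0.23 to 0.55 leaves room for moderate differences in either direction. Per 1000 sorted cells the counts were 23.4 ± 5.24 in control and 12.0 ± 6.86 in Trpm7 cKO (SD, n = 5 each), which was lower on that unscaled measure (log2 fold change -0.96, edgeR adjusted p = 0.0188). On that measure 5162 of 7753 genes tested were lower and the median log2 fold change was -1.15, so Tgfbr2 fell less than the median gene.

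Acvr2a (chr2:48814109-48903269, plus strand) and Acvr2b (chr9:119402118-119434995, plus strand), the type II receptors that bind activins and myostatin, were not called in either direction, and Acvr2b was too sparse to test. Acvr2a held 30, 19, 21, 38 and 23 counts in control and 16, 8, 5, 9 and 4 in Trpm7 cKO. Its level was 27.3 ± 7.18 CPM in control and 19.9 ± 6.17 CPM in Trpm7 cKO (SD, n = 5 each), with a log2 fold change of -0.48 ± 0.29 (SE, 95% interval -1.07 to 0.12; edgeR adjusted p = 0.174). Trpm7 cKO replicates 2, 3 and 4 lay below all control libraries and replicates 1 and 5 lay among them. Per 1000 sorted cells, Acvr2a fell from 8.73 ± 2.60 to 2.80 ± 1.57 counts (SD, n = 5 each; log2 fold change -1.63, edgeR adjusted p = 2.81e-04). On this unscaled measure 5162 of 7753 genes tested were lower, and the median log2 fold change was -1.15. Orc4 lies over the 3′ end of Acvr2a on the opposite strand, so reads of this pair could not be told apart.

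Acvr2b was at the edge of detection, with 3, 6, 2, 4 and 3 counts in control and 3, 4, 4, 1 and 2 in Trpm7 cKO. As CPM this was 3.76 ± 1.52 and 8.04 ± 4.99 (SD, n = 5 each), and the ranges overlapped. The gene did not pass the filter, and without the filter its log2 fold change was 0.63 ± 0.62 (SE, edgeR adjusted p = 0.459).

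Fst (chr13:114452290-114458951, minus strand), whose product follistatin sequesters activins and myostatin, was higher in the Trpm7 cKO libraries relative to other transcripts. The counts were 19, 22, 17, 13 and 18 in control and 35, 16, 18, 23 and 5 in Trpm7 cKO. Normalised CPM was 13.1 to 22.7 in control, and 64.7, 29.4, 65.8, 38.1 and 27.6 in Trpm7 cKO replicates 1 to 5. Replicates 1 and 3 were the highest, and the lowest Trpm7 cKO library still lay above the highest control library. The mean rose from 18.7 ± 3.64 to 45.1 ± 18.8 CPM (SD, n = 5 each), a 2.42-fold difference and a log2 fold change of 1.27 ± 0.27 (SE, 95% interval 0.71 to 1.84; edgeR adjusted p = 6.05e-04). Per 1000 sorted cells the counts were 5.93 ± 1.09 and 6.47 ± 3.64 (SD, n = 5 each), with a log2 fold change of 0.12 (edgeR adjusted p = 0.781).

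**Figure D3:**
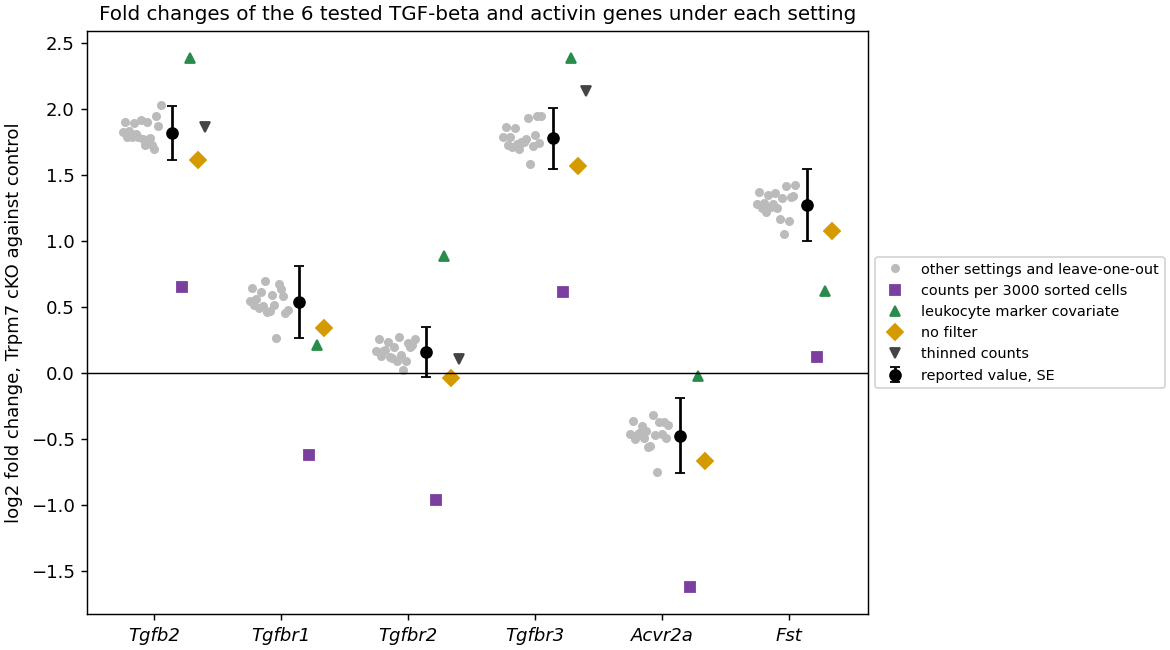
Log2 fold change of Trpm7 cKO against control for the 6 tested genes under each way of processing: black circles with an SE bar are the reported values, pale grey circles the other settings and the fits that leave out 1 library, and squares, triangles and diamonds 4 named settings. Tgfb2, Tgfbr3 and Fst stay above 0 throughout, and the counts per 3000 sorted cells lie lowest for every gene.

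Because a 3′-end library gives a transcript 1 count whatever its length, levels could also be set side by side between genes. In control MuSCs the order of mean CPM was Tgfbr3 at 101, Tgfbr2 at 73.3, Tgfb2 at 45.8, Tgfbr1 at 28.5, Acvr2a at 27.3, Fst at 18.7, Tgfb3 at 4.20, Tgfb1 at 3.97 and Acvr2b at 3.76. Most neighbours in this order overlapped between libraries. The ranges were apart only between Tgfbr2 and Tgfb2, and between Fst and Tgfb3. In the Trpm7 cKO libraries Tgfbr3 and Tgfb2 came first, at 350 and 162 CPM, and Tgfbr2 followed at 78.9 CPM. The transcripts of the coreceptor and of the ligand it presents thus stood above those of both signalling receptors on the mean CPM scale.

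Shares within a library need no scaling between libraries. Tgfb1 made up 7.54% ± 3.804 of the TGF-β ligand counts in control and 14.1% ± 13.3 in Trpm7 cKO (SD, n = 5 each; exact two-sided permutation p = 0.373, adjusted p = 0.373 over 3 shares). In single Trpm7 cKO libraries this share ran from 1.6% (2 of 125 counts, exact 95% binomial interval 0.194 to 5.66) in replicate 2 to 35.1% (13 of 37 counts, 20.2 to 52.5) in replicate 5. Without replicate 5 the difference between the groups went from 6.52 to 1.25 percentage points. Tgfb2 was the majority of the ligand counts in every library. The intervals cover counting error only.

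Tgfbr2 made up 71.9% ± 6.29 of the Tgfbr1 and Tgfbr2 counts in control and 65.5% ± 10.3 in Trpm7 cKO (SD, n = 5 each; exact permutation p = 0.278, adjusted p = 0.373). Without Trpm7 cKO replicate 5 this difference went from -6.44 to -2.56 percentage points. Acvr2b made up 12.6% ± 6.48 of the Acvr2a and Acvr2b counts in control and 27.4% ± 14.1 in Trpm7 cKO (SD, n = 5 each; exact permutation p = 0.0635, adjusted p = 0.190). The smallest p this design allows is 0.00794, so a clear separation could have passed, and none of the 3 shares did. The Trpm7 cKO libraries gave only 6 to 19 counts of the activin receptor pair each, so the last share is imprecise.

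**Figure D4:**
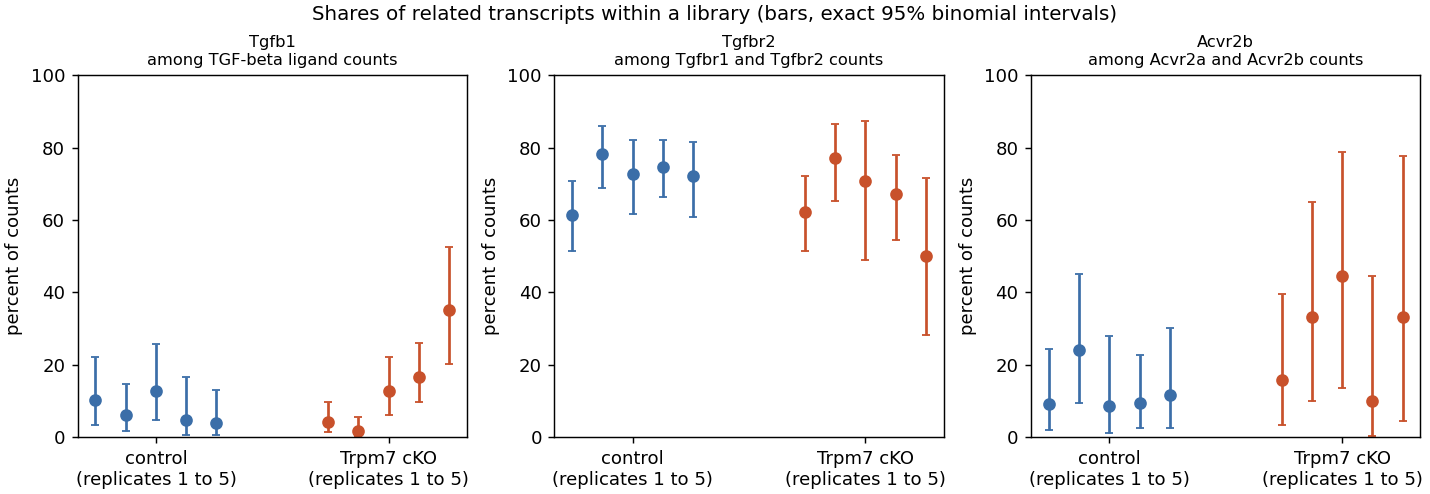
Share in percent of Tgfb1 among TGF-β ligand counts, of Tgfbr2 among Tgfbr1 and Tgfbr2 counts, and of Acvr2b among Acvr2a and Acvr2b counts, with 1 point per library in the order of replicates 1 to 5 and bars for the exact 95% binomial interval. Control and Trpm7 cKO libraries overlap in all 3 panels.

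A wider list of 57 genes of the same system placed these genes among their partners. Of 55 genes analysed, 43 were tested. In the Trpm7 cKO libraries 28 of these were higher and 5 lower, beside 24.6% and 24.1% of all genes. Some of the 28, such as Ltbp2, Mmp14, Eng and Tagln, passed the filter mainly through the Trpm7 cKO group. The median log2 fold change of the 43 was 0.80, 18 were higher past 1.5, beside 8.49% of all genes, and 23 had groups that did not overlap, beside 34.5%. The leukocyte, endothelial, fibroadipogenic and mural marker levels moved in the same direction, and Col1a1, Col3a1, Dcn and Acta2 stand on 2 of these lists at once. With the leukocyte marker level as a covariate, 9 of the list were higher (Tagln, Ltbp2, Smad3, Ltbp4, Ccn2, Acta2, Bgn, Skil and Fbn1) and 1 was lower (Thbs1). Of all 7753 genes, 340 were higher and 109 lower in that model. On counts per 3000 sorted cells, 13 were higher and 13 were lower, beside 380 and 5162 of all 7753 genes.

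**Figure D5:**
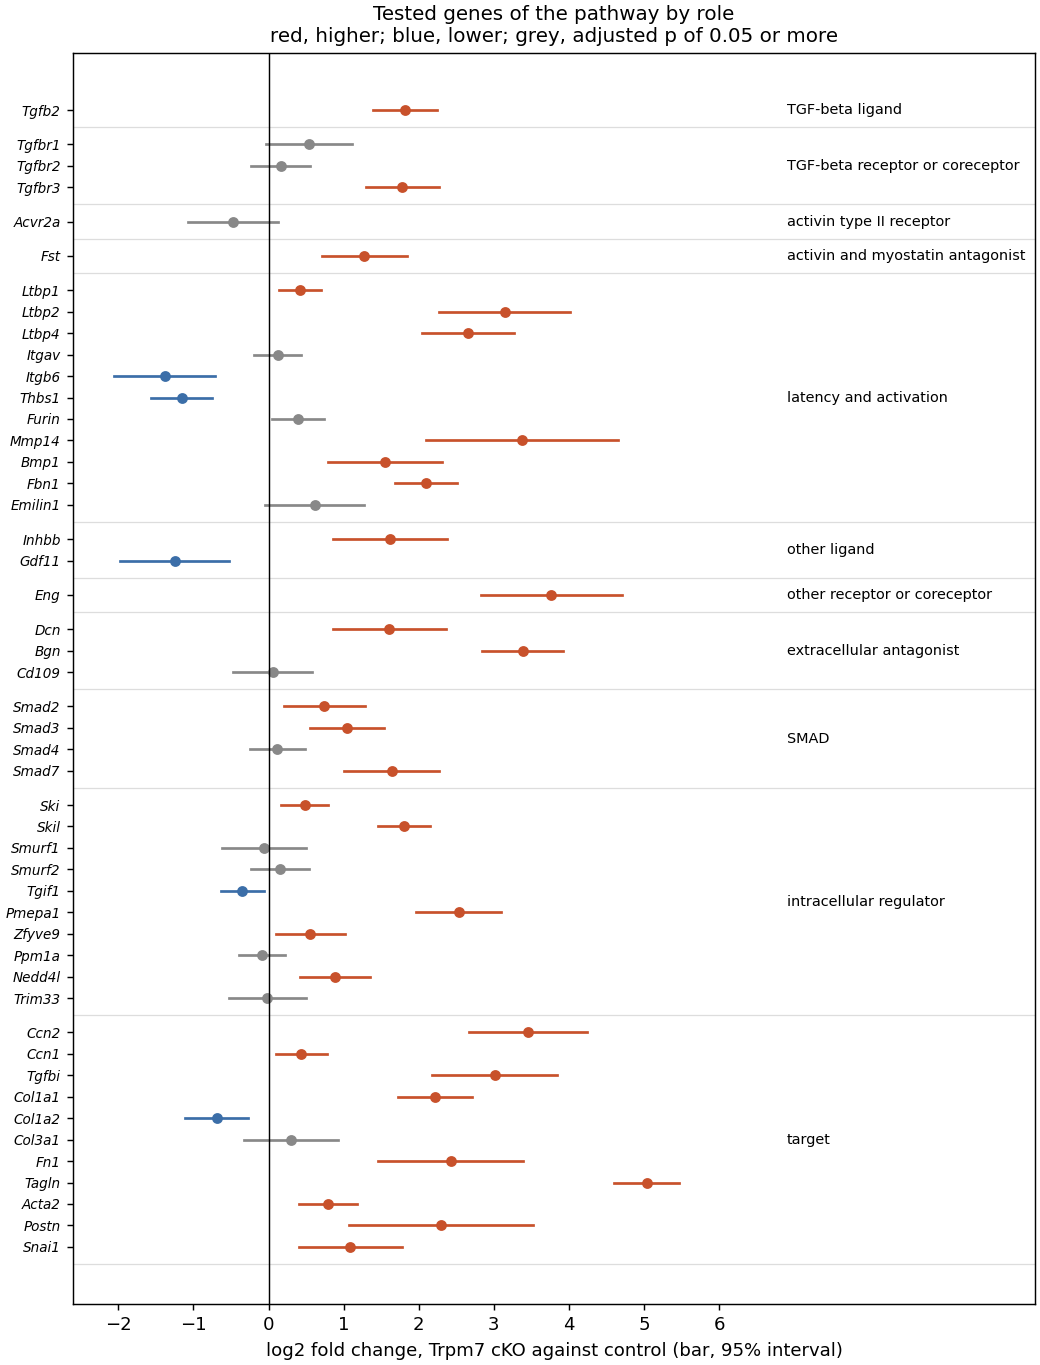
Log2 fold change of Trpm7 cKO against control with its 95% interval (x axis) for 6 tested genes of the main list and 42 of the wider list, grouped by role, in red where higher, blue where lower and grey where the adjusted p was 0.05 or more. Most SMADs, matrix regulators and targets lie to the right of 0, and Itgb6, Thbs1, Gdf11, Tgif1 and Col1a2 lie to the left.

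Among genes of latency and activation, 6 of 11 tested rose and 2 fell, beside 24.6% and 24.1% of all genes. Mmp14, a membrane metalloprotease, rose from 8.97 ± 3.71 to 110 ± 106 CPM (SD, n = 5 each; log2 fold change 3.37 ± 0.58 SE, edgeR adjusted p = 5.40e-04). Ltbp2 and Ltbp4, of the latent TGF-β binding protein family, had log2 fold changes of 3.14 ± 0.42 (adjusted p = 3.52e-06) and 2.66 ± 0.29 (adjusted p = 8.19e-07). In control libraries Ltbp2 gave 1 to 7 counts and Mmp14 gave 4 to 12. Both passed the filter through the Trpm7 cKO group, which fixed their direction. Fbn1, fibrillin-1, the microfibril protein that anchors latent complexes, was higher by 2.09 ± 0.20 (SE, adjusted p = 9.05e-08). Both genes of the role that fell encode proteins that free active ligand. The protease genes Mmp14 and Bmp1 rose (Bmp1 log2 fold change 1.55 ± 0.36 SE, edgeR adjusted p = 0.00161). Bmp1 was added after its values were seen. Thbs1, thrombospondin-1, fell from 768 ± 111 to 344 ± 120 CPM (SD, n = 5 each; log2 fold change -1.16 ± 0.19 SE, adjusted p = 6.66e-05). Itgb6, the partner of the αv integrin, went from 43.9 ± 4.78 to 13.4 ± 11.4 CPM (SD, n = 5 each; log2 fold change -1.38 ± 0.32 SE, adjusted p = 0.00131). Thbs1, Itgb6, Tgif1 and Col1a2 are named because few genes of the list fell, a choice made after their values were seen.

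Of the activin and related ligands, Inhbb, the activin βB subunit, rose and Gdf11, the closest relative of myostatin, fell. Inhbb went from 13.7 ± 5.57 to 40.3 ± 23.2 CPM (SD, n = 5 each; log2 fold change 1.62 ± 0.36 SE, edgeR adjusted p = 0.00104), with no overlap. Gdf11 went from 19.1 ± 2.87 to 7.87 ± 3.86 CPM (SD, n = 5 each; log2 fold change -1.25 ± 0.35 SE, adjusted p = 0.00499), and its Trpm7 cKO libraries held 1 to 6 counts. Inhba, the βA subunit, gave 1 to 2 counts in control libraries and 0 to 5 in Trpm7 cKO libraries and was not tested. Inha, the inhibin α subunit, was at 0 in all libraries, where 3 counts correspond to 2.98 CPM in the largest and 16.6 CPM in the smallest.

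Among other receptors, only Eng was tested. It was sparse in every control library and passed the filter through the Trpm7 cKO group. A higher result was thus fixed in advance. Eng, endoglin, a coreceptor abundant on endothelium, gave 1 to 2 counts in control libraries and 7 to 12 in Trpm7 cKO libraries, or 1.69 ± 0.612 and 28.3 ± 12.1 CPM (SD, n = 5 each; edgeR adjusted p = 9.85e-07). The summed endothelial markers were 6.43 to 79.9 CPM in control and 134 to 762 CPM in Trpm7 cKO, and their part in the Eng difference was not tested. Acvr1b, the activin type I receptor, gave 6 to 12 counts in control and 3 to 10 in Trpm7 cKO. Bambi, a decoy receptor, gave 1 to 5 and 4 to 10 counts, and Acvr1c gave at most 1 count in any library.

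Of 3 tested antagonists, the proteoglycan genes Bgn and Dcn rose, beside 24.6% of all genes. Bgn, biglycan, went from 32.6 ± 8.75 to 349 ± 126 CPM (SD, n = 5 each; log2 fold change 3.38 ± 0.26 SE, edgeR adjusted p = 2.13e-08). Dcn, decorin, went from 38.0 ± 9.85 to 121 ± 68.5 CPM (SD, n = 5 each; log2 fold change 1.61 ± 0.35 SE, adjusted p = 0.00180). Both are abundant in fibroblasts, and the summed fibroadipogenic markers, of which Dcn is one, were 1004 to 2067 CPM in control and 1611 to 3915 CPM in Trpm7 cKO. The part of these cells in the difference was not tested. With the leukocyte covariate Bgn stayed at 3.43 and Dcn turned to -1.01 (edgeR adjusted p = 0.457).

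All 4 SMAD genes of the list were tested, and 3 were higher, beside 24.6% of all genes. Smad3, a receptor-activated SMAD, had a log2 fold change of 1.05 ± 0.24 (SE, edgeR adjusted p = 0.00101) without overlap between the groups. Smad2, the other receptor-activated SMAD, had 0.74 ± 0.26 (SE, adjusted p = 0.0218), with overlap, and lost its call without control replicate 1 or 4 or Trpm7 cKO replicate 1, 2 or 3 (adjusted p = 0.0508 to 0.0618). Smad7, the inhibitory SMAD that is itself induced by TGF-β, went from 11.2 ± 4.29 to 38.3 ± 13.5 CPM (SD, n = 5 each; log2 fold change 1.64 ± 0.30 SE, adjusted p = 1.61e-04). Smad4, the common partner, had 0.12 ± 0.18 (SE, 95% interval -0.25 to 0.48; adjusted p = 0.604).

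Among 10 intracellular regulators, 5 rose and 1 fell, beside 24.6% and 24.1% of all genes. Pmepa1, which sequesters receptor-activated SMADs and is a TGF-β target, went from 65.0 ± 18.6 to 385 ± 147 CPM (SD, n = 5 each; log2 fold change 2.53 ± 0.27 SE, edgeR adjusted p = 1.66e-06). Skil, the SMAD corepressor SnoN, had a log2 fold change of 1.80 ± 0.17 (SE, adjusted p = 7.02e-08). Nedd4l, a ubiquitin ligase for activated SMADs, and Zfyve9, the SMAD anchor SARA, had 0.88 ± 0.22 (SE, adjusted p = 0.00275) and 0.55 ± 0.22 (SE, adjusted p = 0.0428). Tgif1, a corepressor, fell by 0.35 on the log2 scale (SE 0.14, adjusted p = 0.0415). The calls of Zfyve9 and Tgif1 did not hold when a replicate block was added (edgeR adjusted p = 0.0963 and 0.0661), nor when scaled on the MuSC markers (0.0865 and 0.161), and Zfyve9 was not called by DESeq2 (0.0725). Zfyve9 was also not called without control replicate 1, 2, 3 or 4 or Trpm7 cKO replicate 1 or 2 (adjusted p = 0.0541 to 0.186), nor Tgif1 without control replicate 1, 3 or 4 or Trpm7 cKO replicate 2, 3 or 5 (adjusted p = 0.0506 to 0.0991), with total counts (0.164) or with the stricter filter (0.106). Smad7, Skil, Pmepa1 and Bgn had no overlap between the groups.

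Of 12 tested genes known as targets of TGF-β, 10 rose and 1 fell, beside 24.6% and 24.1% of all genes. Tagln, the actin-binding protein transgelin, held 8 to 13 counts in control and 76 to 212 in Trpm7 cKO libraries. Its CPM went from 10.8 ± 2.72 to 361 ± 66.3 (SD, n = 5 each; log2 fold change 5.03 ± 0.21 SE, edgeR adjusted p = 1.47e-12). Tagln was sparse in control and passed the filter mainly through the Trpm7 cKO group, which fixed its direction. The count of 10 includes Tagln and other genes of this kind. The matricellular gene Ccn2 had a log2 fold change of 3.46 ± 0.36 (SE, adjusted p = 4.46e-06), and the matrix genes Tgfbi and Fn1 had 3.01 ± 0.39 (SE, adjusted p = 1.20e-05) and 2.42 ± 0.44 (SE, adjusted p = 7.15e-04). The collagen I chains moved in opposite directions, Col1a1 by 2.22 ± 0.24 (SE, adjusted p = 1.20e-06) and Col1a2 by -0.69 ± 0.20 (SE, adjusted p = 0.00771). Col1a1 was added after its values were seen. With the leukocyte marker level as a covariate, Tgfbi and Fn1 turned to -0.07 (adjusted p = 0.983) and -0.56 (adjusted p = 0.779), and Tagln was at 5.14. In Trpm7 cKO replicates 1 to 5, Tgfbi was at 73.9, 31.3, 91.3, 147 and 110 CPM. Fn1 was at 126, 35.0, 65.8, 194 and 193 CPM in the same libraries. The leukocyte sum of the group was lowest in replicate 2 and highest in replicate 4. The leukocyte sums of the groups did not overlap, so the covariate model cannot separate the leukocyte level from genotype. The part of the leukocyte level in the differences of Tgfbi, Fn1 and Tagln was not tested. Col1a2 lost its call when scaled on the MuSC markers (adjusted p = 0.0753). The summed mural markers, of which the target Acta2 is one, were 414 to 669 CPM in control and 899 to 1281 CPM in Trpm7 cKO.

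The genes whose levels followed each of the 3 most abundant genes of the list were taken by Pearson's r of log2 CPM over the 10 libraries, as a description. For Tgfbr3 these were Pax7 (r = 0.992), Flrt1 (0.990) and Add3 (0.989). Pax7 is the transcription factor that marks MuSCs. For Tgfb2 they were Klf7 (0.994), Runx1t1 (0.980) and Gabbr1 (0.980). For Tgfbr2, which was not called, the highest values were lower, at 0.889 for Abi1, 0.881 for Map3k20 and 0.881 for Fbxl4. The libraries of a group share genotype and depth, so genes that differ between the groups are alike in this measure.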

How the data were processed

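Gene expression was measured in 5 control and 5 Trpm7 cKO libraries of sorted MuSCs. The authors deposited whole-number UMI counts per gene symbol. They extracted UMIs with UMI-tools (1.1.4), trimmed with Trim Galore (0.6.10), mapped 81-base reads to GRCm38 with HISAT2 (2.2.1), counted with featureCounts (2.0.6) and compared groups with DESeq2 (1.30.1). The annotation and strand setting of the counting are not given in the sources used here. Of 24620 lines, 12 repeat a symbol, and each symbol was used once.

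Counts were scaled by TMM to normalised CPM. Genes were filtered with filterByExpr (minimum count 10, minimum total 15), which left 7753, and genotype was tested by the quasi-likelihood test of edgeR (4.0.16, R 4.3.3) with Benjamini-Hochberg adjustment over all genes tested and a threshold of 0.05. A log2 fold change of 1.5 was counted separately. Shares were compared by an exact two-sided permutation test over 252 splits. Leaving out each library, other scalings, filters and models, DESeq2 (1.42.0) and limma-voom (3.58.1) were tried as alternatives. Leaving out Trpm7 cKO replicates 4 and 5 together was chosen after seeing the data. The code was tested on simulated data. Counting noise alone did not account for the difference in any of 20 replicate pairs, so each library was kept.

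The genes and lists were chosen with earlier results of these data known. Named were the 10 listed genes, up to 4 called genes with the largest fold change in each role of the wider list, all genes of a role with 4 or fewer, and for the 3 most abundant genes the 3 most correlated genes. Gene positions follow the GENCODE annotation of GRCm38, and promoter sequences are from RefSeq. Replicate numbers were not used to pair the samples in the main test. 1 gene of the wider list is counted but not reported here by name.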

Additional observations from a re-analysis of the deposited data

Results flagged for a closer look

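The share of Acvr2b among Acvr2a and Acvr2b counts was 24.0% in control replicate 2 (6 of 25 counts), and the next highest control library was at 11.5%. The gap was 0.814 of the range of the 5 control libraries, above Dixon's 95% limit. It was the only one of 6 groups of shares marked by this test, and none of the 18 groups of CPM values of the 9 genes was. Chance marks about 1 in 20 groups.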

How the results depend on the processing

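Tgfb2, Tgfbr3 and Fst were higher in every setting but these: none on counts per 3000 sorted cells, Fst no longer with the leukocyte covariate, and Fst too sparse to test in thinned counts. On counts per 3000 sorted cells, 0 of the main list were higher and 2 were lower (Tgfbr2 and Acvr2a), 13 of the wider list were higher and 13 lower, and the split over all genes was 380 higher to 5162 lower against 1908 to 1866, with the median of all genes moved to -1.15. On that scale Tgfbr1 turned to -0.62 and Tgfbr2 to -0.96. Without a filter, 5 genes of the main list were higher, Tgfbr2 turned to -0.038, the median of all genes moved to 0.17 and 2881 genes were higher and 2635 lower of 21914 tested. Thinning all libraries to one depth left 15 higher and 2 lower in the wider list, with 915 and 879 of 3941 genes. The leukocyte covariate left 9 and 1, with 340 and 109 of all genes. Scaling on the MuSC markers left 3 lower in the wider list. These settings change the genes tested, the scale or the model by construction, and no further cause was tested.

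Leaving out 1 library gave 3 to 4 higher and 0 to 0 lower in the main list, and 26 to 30 higher and 3 to 5 lower in the wider list, with 3 lower without control replicate 1, 3 or 4. Tgfb3 passed the filter without any 1 control library or without Trpm7 cKO replicate 5, with log2 fold changes of 2.54 to 3.01. The ranges were 1.70 to 1.95 for Tgfb2, 1.59 to 1.95 for Tgfbr3 and 1.05 to 1.42 for Fst, and each stayed past the threshold. Without Trpm7 cKO replicates 4 and 5, 4 of the main list were higher and 0 lower. With the replicate number as a block, 3 were higher and 0 lower in the main list and 27 and 4 in the wider list, which lost Zfyve9 and Tgif1. Between same-numbered libraries, the deviations of log2 CPM from the group mean correlated at -0.12 to 0.18. Libraries of different number were not compared, so a shared batch was not tested. None of the 3 shares passed the threshold when 1 library was left out, the differences running from 1.25 to 9.64, -9.38 to -2.56 and 10.54 to 19.2 points. With the block their exact permutation test cannot go below p = 0.0625 and says nothing here. The depth of Trpm7 cKO replicate 5 limits every gene under about 16.6 CPM there.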
